A study of Mus musculus with 16 samples.

Results

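The transcription factors Tead1, Tead2, Tead3 and Tead4, their coactivators Yap1 and Wwtr1 (TAZ) and 4 target genes of the complex, Ctgf, Cyr61, Ankrd1 and Amotl2, were followed through the first 48 h of fat cell differentiation. All 10 genes were found among the 22225 protein-coding genes of the annotation of the mouse genome build mm9, and each was given a window of the gene body plus 50 kb on each side. An island is a region called enriched in 1 chromatin immunoprecipitation sequencing (ChIP-seq) library, and every island overlapping a window was kept from all 16 island lists. The 10 windows spanned 1565 kb together. All but those of Tead1 and Amotl2 also held other protein-coding genes, such as Gm10010 and Tulp3 at Tead4 and Rpp30 at Ankrd1. Lengths in these windows cannot be given to the member alone.

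The cells were 3T3-L1, a mouse preadipocyte line that turns into fat cells after confluence when insulin, dexamethasone and isobutylmethylxanthine (MDI) are added at 0 h. H3K27ac, the acetylated histone H3 lysine 27 of active enhancers and promoters, was mapped in cells carrying the empty retroviral vector and in cells carrying SETD5-V5, at 0 h and 48 h, with replicates A and B of each of these 4 groups. SETD5 is a SET domain protein that the study examined as a brake on adipogenesis, and its V5-tagged form was mapped with an anti-V5 antibody at 0 h and 6 h, again in replicates A and B. H3K4me1, the monomethylated histone H3 lysine 4 of primed and active enhancers, had 1 library at 0 h and 1 at 48 h, and endogenous SETD5, mapped with an antibody to the protein itself, had 1 at 0 h and 1 at 6 h. The vector drives SETD5-V5 from a weak viral promoter, beside the cell's own SETD5. Every group is this cell line alone. The labels of both H3K4me1 libraries name the SETD5-V5 virus and those of the SETD5-V5 replicate A libraries name none, which goes against the study's description, and this was not resolved here.

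The TEAD proteins bind DNA at a short core, GGAATG or its reverse complement CATTCC, and activate little without a coactivator. Yap1 and Wwtr1 are coactivators with no DNA-binding domain of their own. When the Hippo kinases Stk3, Stk4, Lats1 and Lats2 are active, as in dense cultures, they phosphorylate Yap1 and Wwtr1, which then stay in the cytoplasm. When the kinases are inactive, both proteins enter the nucleus, join a TEAD protein and raise genes such as Ctgf and Cyr61. In cells that can become fat or bone, Wwtr1 is known as a coactivator that holds back PPARγ, the main regulator of fat cells.

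The TEAD core was common in the member promoters. Of the 10 members, 7 had a RefSeq promoter (table of build GRCm38.p6, searched over the 250 bases before each start), and 6 of these 7 held a core on either strand, all but Tead2. Some have several promoters in the table, and 8 of their 10 promoter sequences held a core. The Wwtr1 sequences overlap and hold the same core, so these 8 are not all separate promoters. Of all 32851 promoters of the table, 12.6% held a core. No member promoter held the AP-1 motif TGANTCA or the C/EBP motif TTGCNNAA, searched on both strands, which 6.75% and 9.56% of all promoters held. A match of letters is a description and does not show that a factor binds there. The Cyr61 promoter lies at chr3:145312950-145313199 (mm9, minus strand) and the Ankrd1 promoter at chr19:36194335-36194584 (mm9, minus strand), and for Amotl2 the 30 bases around its core are given. They are shown because they hold TEAD cores, in capitals, and lie in islands described below. The Cyr61 and Amotl2 promoters were covered in all 8 H3K27ac lists and all 4 SETD5-V5 lists, and the Ankrd1 promoter in 2 and 1 of them.
Cyr61 promoter: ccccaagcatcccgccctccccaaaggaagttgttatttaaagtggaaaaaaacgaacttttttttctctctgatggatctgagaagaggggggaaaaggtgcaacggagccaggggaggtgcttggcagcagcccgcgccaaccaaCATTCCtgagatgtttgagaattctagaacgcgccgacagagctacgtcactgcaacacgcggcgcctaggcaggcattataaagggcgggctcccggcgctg
Ankrd1 promoter: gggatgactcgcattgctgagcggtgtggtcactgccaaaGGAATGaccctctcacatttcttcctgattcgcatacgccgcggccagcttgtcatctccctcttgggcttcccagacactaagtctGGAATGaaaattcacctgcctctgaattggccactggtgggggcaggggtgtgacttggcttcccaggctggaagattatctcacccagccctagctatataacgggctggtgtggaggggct
Amotl2 promoter core: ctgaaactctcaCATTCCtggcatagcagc

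Stretches of 120 bases around TEAD cores were taken from the best-scoring SETD5-V5 island that was in both 6 h lists, for Tead4 (chr6:128238022-128238141, 12.8 kb into the gene), Tead1 (chr7:119843760-119843879, 21 kb into the gene), Ctgf (chr10:24315905-24316024, 0.7 kb into the gene), Ankrd1 (chr19:36203825-36203944, 9.6 kb before its start) and Amotl2 (chr9:102636470-102636589, 17.5 kb after its start and past its end). All are in mm9 and written on the plus strand, with the cores in capitals. The Tead4 and Amotl2 stretches hold 2 cores each.
Tead4: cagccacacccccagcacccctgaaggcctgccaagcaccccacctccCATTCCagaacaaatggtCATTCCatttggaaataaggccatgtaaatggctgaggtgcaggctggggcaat
Tead1: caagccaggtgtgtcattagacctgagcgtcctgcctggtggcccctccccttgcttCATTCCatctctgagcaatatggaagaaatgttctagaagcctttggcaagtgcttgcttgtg
Ctgf: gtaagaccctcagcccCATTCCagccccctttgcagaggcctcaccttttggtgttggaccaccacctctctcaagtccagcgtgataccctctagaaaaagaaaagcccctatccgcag
Ankrd1: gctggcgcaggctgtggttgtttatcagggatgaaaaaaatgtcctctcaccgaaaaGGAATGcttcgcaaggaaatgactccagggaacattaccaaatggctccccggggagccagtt
Amotl2: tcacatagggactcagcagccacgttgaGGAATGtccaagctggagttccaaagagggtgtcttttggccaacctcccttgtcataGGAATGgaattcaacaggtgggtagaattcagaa

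The 8 H3K27ac lists held 31292 to 39949 islands. The 4 SETD5-V5 lists held 6666 to 35573, and the 0 h replicate B list stood apart with 6666 against 16054 in replicate A, so results on SETD5-V5 are given with and without it. All 6 preadipocyte markers checked had an H3K27ac island at the start site in both lists of every group, and the adipocyte markers with one went from 2 of 6 at 0 h to 5 of 6 at 48 h in empty-vector cells and 4 of 6 in SETD5-V5 cells. Of 14 markers of muscle, endothelium, blood, liver and neurons, 13 had none in any list and 0 had one in both lists of a group. The lists hold positions and scores but no read counts, so the reads behind an island are unknown. A longer island cannot be told apart from more cells carrying the mark. The study gives total reads per library, which were not used here. By its totals, both SETD5-V5 H3K27ac libraries were deeper than both empty-vector ones at 0 h, and the same held at 48 h. Both anti-V5 libraries at 6 h were deeper than both at 0 h, and of those at 0 h replicate B was deeper than replicate A. The part of depth in the differences below was not tested.

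The quantity compared below is the length of the window covered by islands, in kb. Differences are of log2(kb + 1) from limma, fitted over the 17760 protein-coding genes with an H3K27ac island in at least 2 libraries (13744 for SETD5-V5), and a gene was called at an adjusted p under 0.05. A difference on this scale understates the change of short lengths.

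Between 0 h and 48 h in empty-vector cells, H3K27ac islands grew over Tead4, Tead1 and Cyr61 and shrank over Ankrd1. The test called 3 of the 10 members higher (24.1% of all genes were called higher) and 1 lower (13.4% of all genes), and the other 6 had adjusted p from 0.147 to 1. In SETD5-V5 cells, 3 members were called higher, Tead4, Yap1 and Cyr61 (14.9% of all genes), and 3 lower, Ctgf, Ankrd1 and Amotl2 (11.8%). Ctgf entered the fit only through the SETD5-V5 libraries at 0 h, so its call supports nothing about the members. Tead4, Cyr61 and Ankrd1 were called in the same direction in both kinds of cell. The median difference over the members was 0.01 in empty-vector cells and -0.24 in SETD5-V5 cells, against 0.13 and 0.00 over all genes tested. The groups did not overlap for 3 members higher and 3 lower in empty-vector cells (40.1% and 23.2% of all genes) and for 4 higher and 6 lower in SETD5-V5 cells (31.9% and 30.7%).

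**Figure D1:**
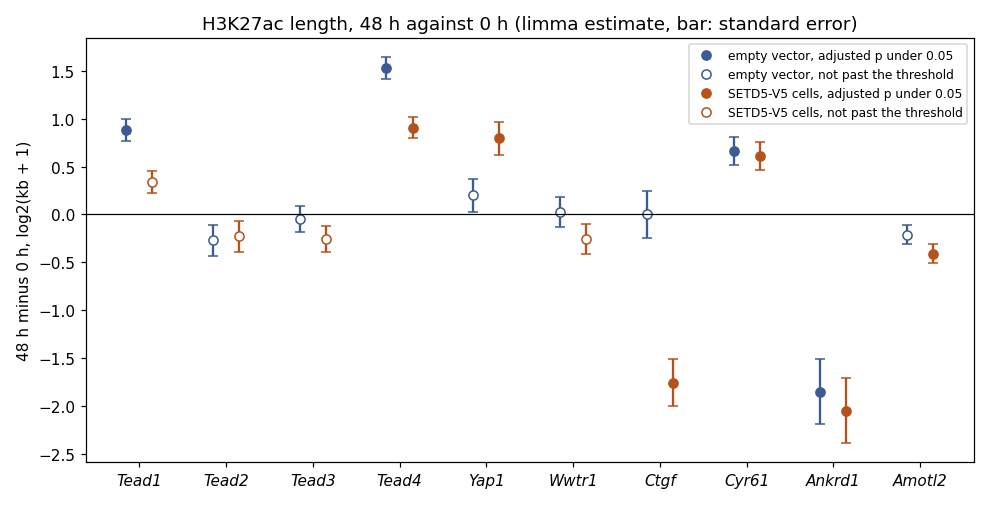
Difference of H3K27ac covered length between 48 h and 0 h for each member, in log2(kb + 1), in empty-vector and SETD5-V5 cells, as the limma estimate with its standard error and filled points for adjusted p under 0.05. Tead4 has the highest estimate in both kinds of cell (1.53 and 0.91) and Ankrd1 the lowest (-1.85 and -2.05).

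**Figure D2:**
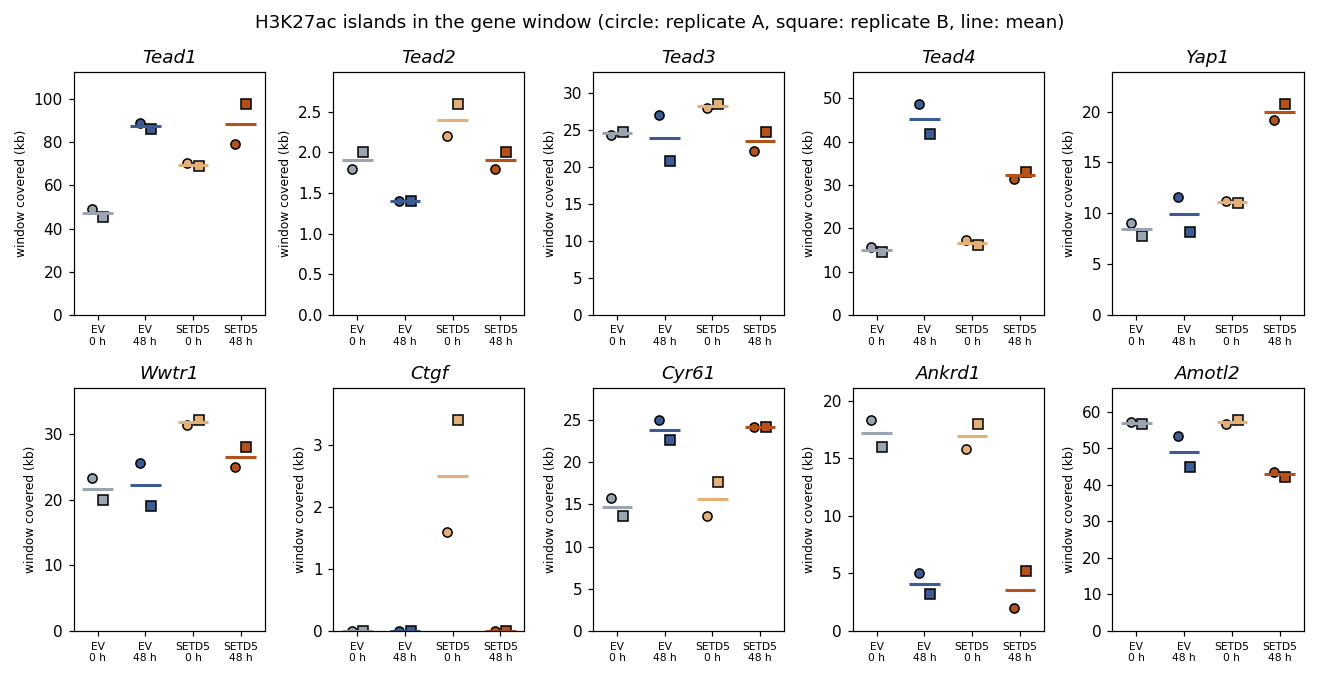
Kilobases of each member window covered by H3K27ac islands in every library, with replicate A as a circle, replicate B as a square and a line at the mean of each group (EV is empty vector). Tead4 sits between 14.4 and 17.2 kb in all 4 libraries at 0 h and between 31.4 and 48.8 kb in all 4 at 48 h, and Ctgf is at 0 in every library but the SETD5-V5 ones at 0 h.

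Tead4 (chr6:128174306-128250841, minus strand), a TEAD factor known from the trophectoderm and from muscle, had the highest difference on the log2(kb + 1) scale, although in kb Tead1 added more. Its window held 15.6 and 14.4 kb of H3K27ac islands in the empty-vector libraries at 0 h (replicates A and B) and 48.8 and 41.8 kb at 48 h. In SETD5-V5 cells it held 17.2 and 16.2 kb at 0 h and 31.4 and 33 kb at 48 h. Both 48 h groups were above both 0 h groups, and at 48 h both SETD5-V5 libraries were below both empty-vector libraries. The log2 difference over time was 1.53 (SE 0.11, adjusted p = 0.00016) in empty-vector cells and 0.91 (adjusted p = 0.00159) in SETD5-V5 cells.

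At 48 h the Tead4 length was 32.2 ± 1.13 kb in SETD5-V5 cells and 45.3 ± 4.95 kb in empty-vector cells (SD, n = 2 each), a log2 difference of -0.48 with an adjusted p of 0.0347. That call was lost when only islands above the median score were used (adjusted p = 0.0548), with equal numbers of islands per list (0.0947), in windows of 10 kb each side (0.0671), with the replicate block (0.0546), by number of islands (0.869), and without any of 5 libraries in turn. The values without them were 0.161 without empty-vector 48 h replicate A, 0.167 and 0.125 without SETD5-V5 48 h replicate A or B, and 0.0583 and 0.0580 without SETD5-V5 0 h replicate A or B. The difference between the time effects themselves was -0.62 and did not pass (adjusted p = 0.0823), although it did when lengths were scaled to each list's covered length (adjusted p = 0.0476). Counted as islands rather than length, Tead4 went the other way in SETD5-V5 cells, with 7 and 6 islands at 0 h, 7 and 5 at 48 h and a log2 difference of -0.11 that was not called, and in empty-vector cells the difference was 0.21 and was not called either (adjusted p = 0.529).

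The length at Tead4 came mainly from the start of the gene. A region of 34.2 kb at chr6:128219201-128253400 held 11 and 12.6 kb of islands at 0 h in empty-vector cells and 34.2 and 27.6 kb at 48 h, and in SETD5-V5 cells 14 and 14.4 kb and then 24.4 and 23.6 kb. Its best island was scored below 34.1% and 24.1% of the islands of its list at 0 h in empty-vector cells and below 0.288% and 0.525% at 48 h. In SETD5-V5 cells at 48 h these shares were 1.24% and 1.47%. Farther into the gene, 2 intronic sites at chr6:128184201-128189800 and chr6:128202801-128207200 were in both 48 h lists and in neither 0 h list of both kinds of cell.

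The reverse of the pattern described next, a site in both SETD5-V5 lists and neither empty-vector list at 48 h, was found 7 times. Of these 7 sites, 3 were at Yap1 and 1 each at Cyr61, Tead1, Tead3 and Wwtr1. A further intronic site of Tead4, chr6:128211801-128216400, 36.7 kb into the gene, was the only site of the 10 windows that was in both 48 h lists of empty-vector cells and in none of SETD5-V5 cells. It measured 4.4 and 3.0 kb there. SETD5-V5 islands covered 4.6 and 3.2 kb of it at 6 h and none at 0 h, and H3K4me1 covered 1.4 kb at 0 h and 3.0 kb at 48 h. These values describe a site chosen for its pattern, so they carry no test.

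**Figure D3:**
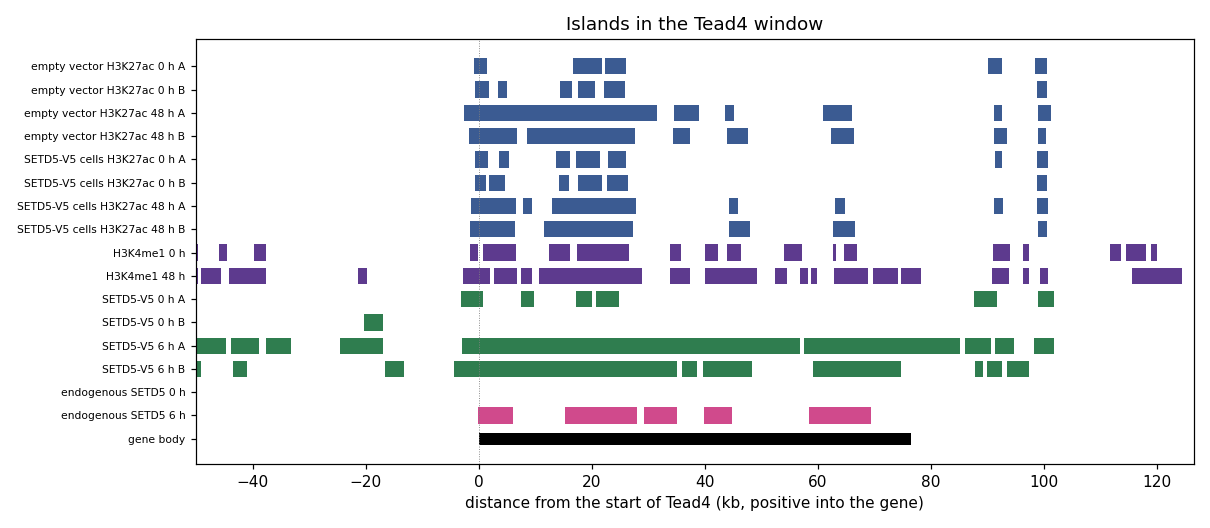
Islands of every list in the Tead4 window, with distance from the gene start in kb on the x axis and a row per library. H3K27ac islands near the start are longer at 48 h than at 0 h in both kinds of cell, and SETD5-V5 islands at 6 h extend over much of the gene.

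Tead1 (chr7:119822832-120050319, plus strand), a broadly expressed TEAD factor, had the longest covered length of the 4 TEAD windows in all 8 libraries, and its window of 327.5 kb was also the longest. Its window held 49 and 45.2 kb at 0 h and 89.0 and 86.4 kb at 48 h in empty-vector cells, and 70.4 and 69 kb and then 79.4 and 98 kb in SETD5-V5 cells. The SETD5-V5 libraries at 0 h lay between the empty-vector groups, above every empty-vector 0 h library and below every 48 h library. Over time the log2 difference was 0.88 (SE 0.11, adjusted p = 0.00107) in empty-vector cells and 0.34 (adjusted p = 0.0677) in SETD5-V5 cells. Counted as islands the first was 0.22 and was not called (adjusted p = 0.187). The difference between these 2 effects was -0.55 with an adjusted p of 0.114, and it passed only when lengths were scaled to the covered length of the lists (adjusted p = 0.0496). At 0 h the SETD5-V5 cells were 0.56 above the empty-vector cells (adjusted p = 0.0567), which also passed under that scaling (0.0166).

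New H3K27ac sites near Tead1 were in both kinds of cell. The longest was 7.4 kb at chr7:119783601-119791000, 35.5 kb before the gene start in intergenic sequence. It measured 6.8 and 6.0 kb at 48 h in empty-vector cells and 5.4 and 5.2 kb in SETD5-V5 cells, with no island at 0 h in any of these lists. SETD5-V5 covered 3.0 and 3.8 kb of it at 6 h. One site inside the gene, chr7:119885601-119890600, which overlaps an exon, was lost at 48 h in empty-vector cells and was still present in both SETD5-V5 lists at 2.0 and 3.0 kb.

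Tead3 and Tead2 had no called difference in H3K27ac. The Tead3 window (chr17:28468616-28487750, minus strand) held 20.8 to 28.6 kb in all 8 libraries, and it also contains Ppard, Fance, Rpl10a, Tulp1 and Fkbp5, so its islands cannot be given to Tead3 alone. Tead2 (chr7:52471123-52489005, plus strand), a TEAD factor known mainly from embryonic tissue, had a single island at its start of 1.4 to 2.6 kb in all 8 lists. No list of SETD5-V5, H3K4me1 or endogenous SETD5 had an island in the Tead2 window, and it was the only member of which this was true.

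Yap1 (chr9:7931999-8004596, minus strand), the main coactivator of the TEAD proteins, gained H3K27ac in SETD5-V5 cells. Its window held 9 and 7.8 kb at 0 h and 11.6 and 8.2 kb at 48 h in empty-vector cells, and 11.2 and 11 kb and then 19.2 and 20.8 kb in SETD5-V5 cells. The SETD5-V5 libraries at 48 h were above the other 6, which lay between 7.8 and 11.6 kb. The log2 difference over time was 0.79 in SETD5-V5 cells (adjusted p = 0.0146) and 0.20 in empty-vector cells (adjusted p = 0.413). At 48 h the SETD5-V5 cells, at 20.0 ± 1.13 kb, were 0.96 above the empty-vector cells at 9.9 ± 2.4 kb (SD, n = 2 each, limma adjusted p = 0.0145).

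The Yap1 calls depended on single libraries and on the setting. Without either SETD5-V5 48 h library the difference at 48 h kept its size, 1.02 without replicate A and 0.91 without replicate B, at adjusted p of 0.0773 and 0.0958, and with equal numbers of islands per list it was 0.62 (0.0613). The change over time in SETD5-V5 cells had adjusted p of 0.0629 to 0.0915 without any 1 of its 4 libraries (0.0698 and 0.0742 without 0 h replicate A or B, 0.0629 and 0.0915 without 48 h replicate A or B). It was 0.55 with islands above the median score (adjusted p = 0.196) and 0.66 by number of islands (0.0752), and by number the difference at 48 h was 0.68 (0.0939). Of 4 sites gained at Yap1 in SETD5-V5 cells, 3 were in both SETD5-V5 lists at 48 h and in neither empty-vector list, at chr9:7978401-7982200 and chr9:7991401-7994600 in introns and at chr9:7890401-7891800 in intergenic sequence. The intronic sites measured 2.4 and 3.8 kb, and 2.4 and 2.2 kb.

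Wwtr1 (chr3:57259571-57379832, minus strand), the coactivator known as TAZ, had no called difference over all islands. Its window held 23.4 and 20 kb at 0 h and 25.6 and 19 kb at 48 h in empty-vector cells, and 31.4 and 32.2 kb and then 25 and 28 kb in SETD5-V5 cells. With islands above the median score alone, the difference over time in empty-vector cells was 1.01 (adjusted p = 0.0247), against 0.03 with all islands. At 0 h the SETD5-V5 libraries were both above the empty-vector ones, and scaled to the covered length of each list the log2 difference was 0.51 (adjusted p = 0.0377). One intergenic site, chr3:57247201-57252800, was in both 0 h lists and neither 48 h list of both kinds of cell, at 4.4 and 1.6 kb in empty-vector and 3.6 and 5.6 kb in SETD5-V5 cells at 0 h.

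Cyr61 (Ccn1, chr3:145309935-145312949, minus strand) encodes a secreted matricellular protein and is a direct TEAD target. Its window held 15.8 and 13.6 kb at 0 h and 25 and 22.6 kb at 48 h in empty-vector cells, and 13.6 and 17.6 kb and then 24.2 and 24.2 kb in SETD5-V5 cells. Both 48 h groups were above both 0 h groups, and the vectors overlapped at each time. The log2 difference was 0.66 (SE 0.15, adjusted p = 0.0115) in empty-vector cells and 0.61 (adjusted p = 0.0217) in SETD5-V5 cells. The first missed the threshold without empty-vector 48 h replicate A (0.0699) or 0 h replicate B (0.0665), and the second without SETD5-V5 0 h replicate A (0.106) or 48 h replicate A or B (0.0994 and 0.101).

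Most of the added length at Cyr61 lay far from the gene. A region centred 38.2 kb before the start, chr3:145342801-145359400, held 4.4 and 3.8 kb at 0 h and 14.6 and 12.8 kb at 48 h in empty-vector cells, and 3.6 and 6.6 kb and then 13.4 and 10.8 kb in SETD5-V5 cells. In windows of 10 kb each side the difference was 0.00 in empty-vector cells (adjusted p = 1) and 0.33 in SETD5-V5 cells (adjusted p = 0.188), where a site 7.95 kb past the start, chr3:145304401-145305600, was gained at 1.2 and 0.8 kb. The promoter shown above was covered from end to end in all 8 H3K27ac lists. Znhit6 also lies in this window.

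Ankrd1 (chr19:36186455-36194334, minus strand), which encodes a cardiac ankyrin repeat protein and is a strong TEAD target, lost H3K27ac. Its window held 18.3 and 16 kb at 0 h and 5 and 3.2 kb at 48 h in empty-vector cells, and 15.8 and 18 kb and then 2 and 5.2 kb in SETD5-V5 cells. All 4 libraries at 48 h were below all 4 at 0 h. The log2 difference was -1.85 (SE 0.34, adjusted p = 0.00519) in empty-vector cells and -2.05 (adjusted p = 0.00503) in SETD5-V5 cells. Counted as islands, the log2 difference was -0.87 and -0.61 and was not called (adjusted p of 0.13 and 0.303).

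The loss at Ankrd1 included the gene itself. The site at chr19:36189201-36195000, which spans the gene start, measured 4.8 and 2.4 kb at 0 h in empty-vector cells and 3.8 and 4.0 kb in SETD5-V5 cells, and was in no 48 h list. H3K4me1 covered 4.0 kb of it at 0 h and none at 48 h. A region centred 11.2 kb before the start was shortened and not lost, from 7.2 and 6.8 kb to 3.2 and 2.0 kb in empty-vector cells and from 6.6 and 6.0 kb to 1.0 and 3.0 kb in SETD5-V5 cells. A site centred 47.5 kb before the start, chr19:36239001-36244600, runs just past the window. It went from 5.2 and 5.2 kb to 0 and 0 kb in empty-vector cells and from 4.0 and 3.8 kb to 0 and 1.0 kb in SETD5-V5 cells. The Ankrd1 promoter shown above, with its 2 cores, was covered in empty-vector 0 h replicate A and SETD5-V5 cells 0 h replicate B among the H3K27ac lists, and also in SETD5-V5 6 h replicate A and H3K4me1 0 h.

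**Figure D4:**
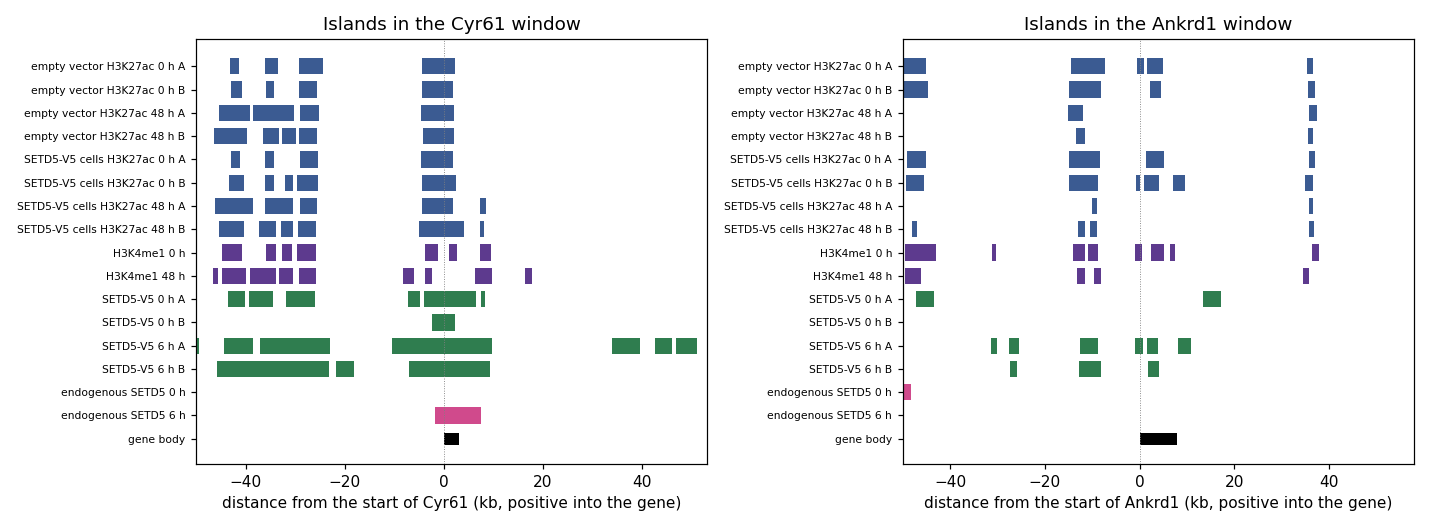
Islands of every list around Cyr61 and Ankrd1, with distance from each gene start in kb and a row per library. At Cyr61 the H3K27ac islands beyond 30 kb before the start are longer at 48 h, and at Ankrd1 the islands over the gene are present at 0 h and absent at 48 h.

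Amotl2 (chr9:102619002-102635748, plus strand), an angiomotin family protein that binds Yap1 and restrains it, is itself a TEAD target. Its window had the largest share under H3K27ac islands in every library, with 57.1 and 56.5 kb at 0 h and 53.3 and 44.8 kb at 48 h in empty-vector cells, and 56.6 and 57.7 kb and then 43.4 and 42.2 kb in SETD5-V5 cells. Both 48 h groups were below both 0 h groups. The log2 difference was -0.41 in SETD5-V5 cells (adjusted p = 0.0241), and in empty-vector cells it was not called. Without any 1 of the 4 SETD5-V5 libraries the adjusted p was 0.0887 to 0.117 (0.0887 and 0.105 without 0 h replicate A or B, 0.0901 and 0.117 without 48 h replicate A or B), in windows of 10 kb each side it was 0.382, and counted as islands the difference was 0.10 in the other direction. Sites at chr9:102601201-102603800 and chr9:102669001-102673400 were lost at 48 h in both kinds of cell. The best Amotl2 island was scored below 0.125% to 1.29% of the islands in every H3K27ac list.

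Ctgf (Ccn2, chr10:24315248-24318489, plus strand), connective tissue growth factor and the most used readout of Yap1 activity, had no H3K27ac island at 0 h or 48 h in empty-vector cells. In SETD5-V5 cells it had 1.6 and 3.4 kb at 0 h and none at 48 h, all at chr10:24291201-24294600, an intergenic site 22.3 kb before the gene. No H3K27ac list had an island within 1 kb of the Ctgf start. H3K4me1 covered 2.2 kb of the distant site at both times. Ctgf entered the fit only through the 2 libraries where it had an island, so the calls describe those libraries alone.

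For Ctgf the fitted difference was 1.76 at 0 h between SETD5-V5 and empty-vector cells (adjusted p = 0.0175), -1.76 over time in SETD5-V5 cells (adjusted p = 0.00257) and -1.76 between the time effects (SE 0.35, adjusted p = 0.0452), all set by the added 1 kb. With no filter on low values the first was 0.0599 and the last 0.0934. At 0 h the call was lost without empty-vector 0 h replicate A or B (0.0835 and 0.103) and without SETD5-V5 48 h replicate A or B (0.0549 and 0.0550). The difference of the time effects was not called without any 1 of the 6 other libraries, at adjusted p of 0.0925 to 0.158 (0.106 and 0.113 without empty-vector 0 h replicate A or B, 0.126 and 0.0925 without empty-vector 48 h replicate A or B, 0.158 and 0.138 without SETD5-V5 48 h replicate A or B).

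Between SETD5-V5 and empty-vector cells few members differed. At 0 h the test called 1 member higher, Ctgf (1.36% of all genes), and 0 lower (0.952%). At an unadjusted p under 0.05, 3 members, Ctgf among them, were higher and 0 lower, beside 2771 of 17760 genes either way. Ctgf entered the fit only through the SETD5-V5 libraries at 0 h, where it is high. Its calls in these comparisons therefore support nothing about the members. At 48 h it called Yap1 higher (6.77% of all genes) and Tead4 lower (7.73%). For 7 members both SETD5-V5 libraries at 0 h were above both empty-vector libraries (24.8% of all genes), and for none were both below (14.2%). At 48 h 2 were above and 2 below (22.3% and 33.1%). The difference of the time effects was called for 1 member, Ctgf, lower (2.08% of all genes), and for 0 higher (1.6%). At an unadjusted p under 0.05, 1 member, Yap1, was higher and 3 were lower, Ctgf among them. Beside these, 3591 of 17760 genes were under it either way. With 2 libraries against 2, an exact permutation test of a single gene cannot go below a two-sided p of 0.333.

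Merged over the 8 lists, the windows held 72 H3K27ac sites, of which 36 were in all 8 lists. In empty-vector cells 10 sites were gained at 48 h (in both 48 h lists and neither 0 h list), 4 of them at Tead1, 3 at Tead4, 2 at Wwtr1 and 1 at Yap1, and 7 were lost. None of the 10 had its middle within 5 kb of the member's start, beside 5 of all 72 sites. Starts of other genes in the windows were not checked. In SETD5-V5 cells 11 were gained, 4 at Yap1, and 5 were lost. Sites gained in both kinds of cell numbered 6 and sites lost in both 4. By list rather than by site, 22.0% and 26.2% of the 48 h empty-vector islands in the windows had no 0 h partner, against 28.9% and 30.9% of the whole lists, and 14.5% and 19.4% of the 0 h islands had no 48 h partner, against 33.2% and 33.8%.

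Of the 48 h empty-vector islands in the windows, 6.78% and 4.92% had no partner in SETD5-V5 cells, against 13.8% and 12.3% of the whole lists. Of the 48 h SETD5-V5 islands, 17.8% and 18.7% had none in empty-vector cells, against 26.6% and 26% of the lists. The islands of a list share their library, so these shares are descriptions with no test.

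SETD5-V5 covered more of 9 members at 6 h than at 0 h, with Tead2 at none throughout. The windows together held 234.7 and 57 kb of SETD5-V5 islands at 0 h (replicates A and B) and 533.9 and 394.6 kb at 6 h. For all 9 members both 6 h libraries were above both 0 h libraries, as for 66.9% of all genes tested, and for 0 both were below (1.51%). The median log2 difference was 2.00 over all 10 members, with the untested Tead2 entered at 0, and 1.91 over all genes tested. The members' medians without a 0 h library, given below, also have Tead2 at 0. Of the 9 members, 1 was called higher, Ctgf (19.2% of all genes were called higher), and 0 lower (0.116%). At an unadjusted p under 0.05, 3 were higher and 0 lower, beside 4412 of 13744 genes either way. Ctgf entered this fit only through the 6 h libraries, where it is high, so its call supports nothing about the members. Scaled to the covered length of each list, the median was 0.90 over the members, Tead2 again at 0, and 1.02 over all genes tested.

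By gene window, the SETD5-V5 length went from 20.2 and 3.4 kb to 121 and 81.2 kb at Tead4. At Tead1 it went from 59.4 and 0 kb to 110.4 and 65.8 kb. At Tead3 it went from 29.6 and 21.2 kb to 66.9 and 59.7 kb, and the best 6 h islands were among the best of their lists, with 0.0562% and 0.0918% of islands above them. Those islands were 149.2 and 118 kb long and ran past the window, so they cannot be given to Tead3 alone. Among the coactivators, Yap1 went from 12.4 and 5.2 kb to 37 and 19.6 kb and Wwtr1 from 39.2 and 0 kb to 68.0 and 57.0 kb.

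Among the targets, Cyr61 went from 28 and 4.6 kb to 53.9 and 42.6 kb, and Amotl2 from 38.3 and 22.6 kb to 55.3 and 51.4 kb. Ankrd1 went from 7.6 and 0 kb to 14.4 and 8.8 kb. Ctgf had no SETD5-V5 island at 0 h and 6.8 and 8.4 kb at 6 h, with islands of 5.4 and 5.8 kb over its start and the intronic stretch printed above. Its fitted difference was 3.10 (adjusted p = 0.0223), which again is set by the added 1 kb and by the filter that let Ctgf in through its 6 h libraries alone. With no filter the adjusted p was 0.184.

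The number of calls changed with each library left out. Without 6 h replicate A or B, 0 genes of all tested were called, and the median difference of the 8 members still tested was 1.76 or 2.25. Without 0 h replicate B, the shorter list, the members' median difference was 0.70 and 0 members were called by limma (0% of all genes either way), Ctgf at an adjusted p of 0.144 and the others from 0.144 to 0.755. Without 0 h replicate A the median was 3.11 and all 9 members tested were called higher at adjusted p from 0.00509 to 0.0313, as were 71.5% of all genes (0.458% were lower). With both, the 8 other than Ctgf had differences of 0.83 to 3.47 at adjusted p from 0.109 to 0.332. Over single settings, Tead4 was also called with equal numbers of islands per list (0.0483) and Tead3 with whole islands not ended at the window's edge (0.0219).

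**Figure D5:**
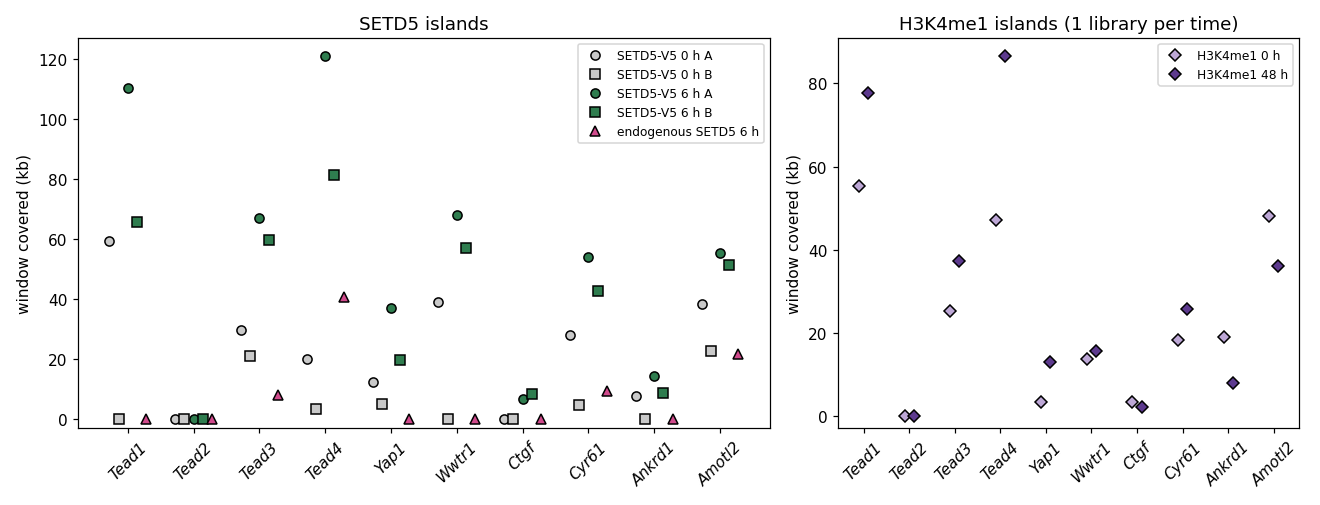
Kilobases of each member window covered by islands of SETD5-V5 (0 h and 6 h, replicate A as a circle and B as a square), H3K4me1 and endogenous SETD5 at 6 h, by library. SETD5-V5 at 6 h is above 0 h in every window but Tead2. Among the SETD5-V5 lists, that of 0 h replicate B is the lowest or at 0 in each.

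Endogenous SETD5 was found at fewer members, with 1 library per time and no test. Its lists were also shorter, with 2132 islands at 0 h and 3293 at 6 h, against 6666 to 35573 in the SETD5-V5 lists. The share of all genes with such an island was not computed. At 6 h endogenous SETD5 had 40.8 kb of islands at Tead4, 21.8 kb at Amotl2, 9.4 kb at Cyr61 and 8.15 kb at Tead3. At 0 h it had none at Tead4 or Cyr61, 5 kb at Amotl2, 4 kb at Tead3 and 1.73 kb at Ankrd1. The other members had none at either time. The 6 h islands covered the Cyr61 and Amotl2 promoter windows from end to end.

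H3K4me1 had 1 library per time and no test either. Its length went from 47.2 to 86.6 kb at Tead4 and from 55.4 to 77.6 kb at Tead1 between 0 h and 48 h, and from 3.2 to 13 kb at Yap1. It went from 19 to 7.8 kb at Ankrd1, from 48.2 to 36 kb at Amotl2 and from 3.2 to 2.2 kb at Ctgf. The 6 members that were longer at 48 h also included Tead3, Cyr61 and Wwtr1, at 25.2 and 37.2 kb, 18.2 and 25.8 kb, and 13.6 and 15.6 kb. Of the 10 H3K27ac sites gained in empty-vector cells, 6 overlapped an H3K4me1 island already at 0 h, 6 were under SETD5-V5 islands of both 6 h lists, 9 of at least 1, and 0 under a SETD5-V5 island at 0 h. Of all 72 sites these were 50, 41, 58 and 34. Of the SETD5-V5 islands in the windows at 6 h, 59.0% and 62.3% overlapped an H3K4me1 island of 0 h, and in the whole lists 58.9% and 61%.

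The other overlaps of the 6 h SETD5-V5 islands were also close to those of the lists. Of these islands in the windows, 57.7% and 90.2% had no 0 h partner of the same letter, against 67.2% and 82.1% of the lists. Those overlapping an empty-vector H3K27ac island were 52.6% and 57.4% at 0 h (57.5% and 56.2% of the lists) and 57.7% and 62.3% at 48 h (57.1% and 58.4%). Endogenous SETD5 islands of 6 h overlapped 7.69% and 11.5% (6.74% and 9.03%). Of the H3K4me1 islands in the windows, 34.0% of those at 48 h were new (34.3% of the list) and 22.9% of those at 0 h were gone by 48 h (33.2%).

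TEAD cores were counted in the islands as well. The SETD5-V5 islands at 6 h held 0.654 and 0.628 cores per kb in the member windows and 0.595 and 0.596 in the whole lists, and the genome held 0.593. H3K27ac islands of empty-vector cells held 0.755 and 0.824 per kb in the windows at 0 h and 0.715 and 0.749 at 48 h, against 0.639 and 0.641 and then 0.592 and 0.593 in the whole lists. The whole windows, islands or not, held 0.585 per kb. Among the members Amotl2 had the most in SETD5-V5 islands at 6 h, at 1.03 and 0.914 per kb, and Tead3 the fewest in replicate A, at 0.359.

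Of 20 other genes of the Hippo pathway and its TEAD cofactors, 3 were called higher in H3K27ac length at 48 h in empty-vector cells and 5 lower, beside 24.1% and 13.4% of all genes. Sav1, the scaffold of the Hippo kinases, went from 6.2 to 23.9 kb as group means (log2 difference 1.79) and Map4k4, a kinase that can act on Lats1 and Lats2, from 8.1 to 35.1 kb (2.00). The Hippo kinases Stk3 and Stk4 went from 80.7 to 18.7 kb (-2.05) and from 50.3 to 17.6 kb (-1.46). In SETD5-V5 cells 4 were higher and 5 lower (14.9% and 11.8% of all genes). The median of the 20 was 0.06 and -0.09, against 0.13 and 0.00 over all genes. At 48 h Stk3, Amot, Vgll2 and Vgll3 were called higher in SETD5-V5 than in empty-vector cells (6.77% of all genes), with Stk3 at 32.3 against 18.7 kb, and 0 of the 20 were called lower (7.73% of all genes, 1 of the 20 at an unadjusted p under 0.05). Either way, 8 of the 20 had an unadjusted p under 0.05 between the vectors at 48 h, beside 5235 of 17760 genes. At 0 h and between the time effects limma called 0, with 5 and 4 at an unadjusted p under 0.05, beside 2771 and 3591 genes.

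Of 18 further genes known as Yap1 and Wwtr1 targets, 0 were called higher (2 at an unadjusted p under 0.05) and 5 lower by limma at 48 h in empty-vector cells, beside 24.1% and 13.4% of all genes. The 5 were Nt5e (from 30.8 to 13.4 kb, -1.14), Ccdc80 (from 27.5 to 12.3 kb, -1.10), Crim1 (-0.78), Nuak2 (-0.54) and Rbms3 (-0.51). At an unadjusted p under 0.05 were 9 of the 18 either way, beside 8129 of 17760 genes. In SETD5-V5 cells 0 were higher (0 at an unadjusted p under 0.05) and 6 lower (14.9% and 11.8% of all genes). There, 7 of the 18 had an unadjusted p under 0.05 either way, beside 6750 of 17760 genes. At 0 h and between the time effects 0 were called, with 6 and 2 at an unadjusted p under 0.05, beside 2771 and 3591 of 17760 genes. The medians of the 18 over time were -0.04 in empty-vector cells and -0.20 in SETD5-V5 cells. At 48 h Dock5 and Rbms3 were higher in SETD5-V5 than in empty-vector cells and Igfbp3, which binds insulin-like growth factors, was lower, at 5.3 against 25.2 kb (6.77% and 7.73% of all genes were higher and lower). Of the 17 tested in each list for SETD5-V5, 4 pathway genes, Sav1, Nf2, Mob1b and Wwc1, and 4 targets, Nt5e, Tgfb2, Fjx1 and Igfbp3, were called higher at 6 h and 0 lower (0 at an unadjusted p under 0.05), beside 19.2% and 0.116% of all genes. All 8 had no SETD5-V5 island at 0 h, so they entered the fit through the 6 h libraries alone. Lats2 and Ptpn14 stand in both lists.

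Over the 8 H3K27ac libraries, the genes whose lengths followed those of Ctgf most closely were Gm5449, Msx2 and Vmn2r90, each with a Pearson r of 0.9997 among 18066 genes compared. This likeness rests on the SETD5-V5 libraries at 0 h, the only ones in which Ctgf had an island.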

How the data were processed

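Chromatin immunoprecipitation sequencing was analysed in 16 libraries of 3T3-L1 cells, with 1 island list each. Per the study's methods, the first 36 bases of reads were aligned by the authors to mm9 (ELAND or Bowtie2). SICER or SICER2 then called islands in each library (window 200 bp, E-value 100). Where the study gives island counts for both versions, the lists used here match those of SICER2. The gap allowed was 400 bp in the histone libraries and 600 bp in the SETD5 ones, so lengths were not compared between marks. The use of an input library is not given in the sources used here. The deposited values are island coordinates (chromosome, start, end) and the caller's score, which was used only to rank islands within a list. Depth is unknown. No 2 lists were identical.

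From the files, the length of each gene window covered by islands was computed for all 22225 protein-coding genes of GENCODE M1 on mm9 and tested as log2(kb + 1) with limma 3.58.1 in R 4.3.3 (trended empirical Bayes, Benjamini-Hochberg over all genes with an island in at least 2 libraries of the fit). All 8 H3K27ac libraries entered 1 fit and the 4 SETD5-V5 libraries another. The replicates were separate experiments per the study. The members and lists were chosen with earlier results of these data known. All 10 members are named, with pathway and target genes given as counts and, for each, those past the test with the largest differences. Sites are merged H3K27ac islands, named where both libraries of a group had an island and neither of the compared group did. Promoter sequences are from RefSeq (GRCm38.p6) and were located in mm9 by sequence. The TEAD, AP-1 and C/EBP motifs were searched on both strands. On simulated data 38%, 86% and 100% of 50 genes were recovered at true log2 changes of 1, 2 and 4 in the H3K27ac fit over 17760 genes. In the SETD5-V5 fit over 13744 genes, 14%, 36% and 76% were recovered when 60% of the other genes were raised too, and 0% when they were not. Alternatives covered the score, island number, window, pseudocount, filter, scaling, measure, window edge, replicate block, overlap, partner list and each library left out. Python 3.11.15, numpy 2.4.6, pandas 2.3.3, scipy 1.17.1, pysam 0.24.0 and matplotlib 3.10.9 were used.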

Additional observations from a re-analysis of the deposited data

Results flagged for a closer look

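For Ctgf the change in H3K27ac length between 0 h and 48 h differed between SETD5-V5 and empty-vector cells by -1.76 on the log2(kb + 1) scale (limma adjusted p = 0.0452 over 17760 genes). It was flagged as the only member called in the test of the difference of the time effects. Ctgf entered the fit only through the SETD5-V5 libraries at 0 h, so this call supports nothing about the members. The value comes from 1 intergenic site of 1.6 and 3.4 kb in the SETD5-V5 libraries at 0 h, with all 6 other libraries at 0, and it was not called with no filter on low values (adjusted p = 0.0934), with the replicate block (0.0672) or without any 1 of those 6 libraries.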

How the results depend on the processing

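The lists hold no read counts and the study's total reads per library were not used, so no depth limit was set. An island missing from a list may lie just under the caller's threshold. Pseudocounts of 0.2 kb changed no call. With the number of islands in place of length, Tead4 (-0.11) and Amotl2 (0.10) reversed over time in SETD5-V5 cells, and 9 calls of single genes were lost. The members' median over time in SETD5-V5 cells, -0.24, was 0.11 with islands above the median score, -0.0826 in windows of 10 kb and 0.0344 by number of islands. The difference at 0 h, 0.21, was 0.12 with islands above the median score. Leaving out 1 library gave -0.10 to 0.18 over time in empty-vector cells, -0.31 to -0.18 in SETD5-V5 cells, 0.18 to 0.28 between the vectors at 0 h, -0.05 to 0.11 at 48 h, -0.42 to -0.05 for the difference of the time effects and 0.70 to 3.11 for SETD5-V5. The mean share of induced islands, 24.1%, was 37.2% with islands above the median score and 39.2% with a 50% overlap, and that of lost islands, 17.0%, was 22.5% and 23.6%. Empty-vector 48 h islands absent with SETD5-V5, 5.85%, were 11.1% with equal numbers of islands and 10.9% with a 50% overlap. SETD5-V5 48 h islands absent with the empty vector, 18.2%, were 10.8% above the median score, 13.5% with equal numbers, 20.6% in windows of 10 kb, 21.6% with a 50% overlap and 18.9% with the other letter's list. Leaving out a replicate gave 22.0% to 26.2%, 14.5% to 19.4%, 4.92% to 6.78%, 17.8% to 18.7% and, for new SETD5-V5 islands, 57.7% to 90.2%. The differences between replicates A and B, gene by gene, correlated from group to group at -0.03 to 0.12 (H3K27ac) and 0.17 (SETD5-V5). The labels tie the letters to no shared animal, batch or day, so the letters are not shown to pair the libraries. The replicate block gave 6159 for 6646 calls over time in empty-vector cells, 4302 for 4735 in SETD5-V5 cells, 273 for 410 at 0 h, 2019 for 2576 at 48 h, 248 for 654 for the difference of the time effects and 3692 for 2661 for SETD5-V5. With it Tead4 between the vectors at 48 h (adjusted p = 0.0546) and Ctgf in the difference of the time effects (0.0672) were not called, and Tead4 was in SETD5-V5 (0.0255), with no other member's call changed. Over all genes, calls moved by more than 1.5 times as follows. Over time in empty-vector cells, 6646 calls became 4188 in windows of 10 kb and 3367 by number of islands, and in SETD5-V5 cells 4735 became 3129 and 2922, and 2578 to 4739 without 1 library. At 0 h 410 became 904 above the median score, 230 with no filter, 961 scaled to covered length, 766 by number of islands and 23 to 304 without 1 library. At 48 h 2576 became 1475 in windows of 10 kb, 1443 with no filter, 3901 scaled and 548 to 2352 without 1 library. For the difference of the time effects 654 became 1434 above the median score, 367 with no filter, 1490 scaled, 1442 by number of islands and 0 to 309 without 1 library. For SETD5-V5 2661 became 1442 with equal numbers of islands, 2 with no filter and 0 to 9427 without 1 library. With equal numbers of islands the share of calls that were higher was 41.0% (58.8%) at 0 h, 30.6% (46.7%) at 48 h and 73.4% (99.4%) for SETD5-V5, with the main value in parentheses. By number of islands it was 51.6% (64.3%) over time in empty-vector cells, 76.0% at 0 h, 76.0% at 48 h and 54.4% (43.4%) for the difference of the time effects, and with islands above the median score 74.7% at 0 h.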
